A study of Drosophila melanogaster with 3 samples.

Results

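The regions described here were weakly enriched in chromatin immunoprecipitated with tagged Erect wing (Ewg) from Drosophila embryos. They fell short of the authors' reproducibility threshold, and each replicate's list of peaks and background held a region at the same place. They were selected on the measured signal. A member is a region of the pooled permissive peak list that shares no base with the authors' optimal peak set and whose summit, the position of highest signal, had a summit within 100 bp in the permissive list of each of the 3 replicates. The optimal set had been thresholded on the irreproducible discovery rate (IDR), a measure of how well the ranks of peaks repeat between replicates. The rule found 2957 members, which were 13.5% of the 21973 pooled regions below the threshold and 9.86% of all 30000 pooled regions. The other 19016 regions below the threshold lacked a summit in at least 1 replicate, and the optimal set held 6793 peaks. Asking only 2 replicates for a summit gave 4916 regions without replicate 1, 5270 without replicate 2 and 5277 without replicate 3. Taken singly, replicates 1, 2 and 3 had a summit within 100 bp for 10446, 10558 and 10449 of the 21973 regions. Permissive lists hold background as well as peaks. Past rank 15000 of replicates 1, 2 and 3 lay the matches of 797, 1062 and 816 members.

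The study mapped Ewg by chromatin immunoprecipitation and sequencing of whole embryos of mixed sex, collected at 0 to 14 hours of development, in 3 biological replicates of 1 group. The embryos came from a transgenic line, ewg-GFP, in which GFP is joined to the C-terminal end of Ewg, and per the labels the antibody was against GFP, although their antibody field reads ewg. Chromatin had been sheared by sonication to 200 to 800 bp. There was no second genotype, treatment or stage, so every comparison is between sets of regions or between replicates. In whole embryos, binding in few cells and weak binding in many cells cannot be told apart.

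Ewg regulates transcription in developing neurons and in the indirect flight muscles and is related to NRF-1 of vertebrates. NRF-1 binds as a dimer to a GC-rich palindrome and is known for its sites at promoters of genes of mitochondria, growth and neurons. A palindrome of this kind reads nearly the same on both strands, and each arm can be held by 1 subunit of the dimer.

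The sequences below are the 5 members with an exact NRF-1 palindrome and the highest mean signal among those whose printed window touches no untranslated region and that lie on the arms used for printing. They are printed because they hold the site that the vertebrate homologue is known to bind. Each runs 5′ to 3′ on the plus strand, from 100 bp before to 100 bp after the summit, from the RefSeq genome of build dm6, and capitals mark the palindrome. The first, at chr3R:21503268-21503468, lies in an intron of C15, which encodes a homeodomain protein of leg patterning, 3382 bp downstream of its start. The second, at chr2L:606198-606398, lies in a non-coding gene near CG13689. The third, at chr2L:16420864-16421064, is intronic in CG5888. The fourth, at chr3R:20662379-20662579, is intergenic, 2575 bp upstream of Nep4, a metalloprotease of the neprilysin family. The fifth, at chr3L:11021046-11021246, is intergenic, 2389 bp upstream of Fad2, a fatty acid desaturase.
C15 region: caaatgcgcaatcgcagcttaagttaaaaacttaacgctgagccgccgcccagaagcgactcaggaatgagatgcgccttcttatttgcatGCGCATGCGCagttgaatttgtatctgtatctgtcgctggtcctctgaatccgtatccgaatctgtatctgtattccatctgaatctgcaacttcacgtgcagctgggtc
CG13689 region: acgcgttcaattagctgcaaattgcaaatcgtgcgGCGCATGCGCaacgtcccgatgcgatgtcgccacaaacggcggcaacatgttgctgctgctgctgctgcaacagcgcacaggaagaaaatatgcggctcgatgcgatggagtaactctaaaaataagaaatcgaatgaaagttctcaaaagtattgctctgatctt
CG5888 region: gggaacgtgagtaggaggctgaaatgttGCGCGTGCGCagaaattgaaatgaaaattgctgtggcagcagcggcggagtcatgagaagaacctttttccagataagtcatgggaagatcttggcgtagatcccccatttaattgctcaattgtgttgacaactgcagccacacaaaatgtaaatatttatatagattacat
Nep4 region: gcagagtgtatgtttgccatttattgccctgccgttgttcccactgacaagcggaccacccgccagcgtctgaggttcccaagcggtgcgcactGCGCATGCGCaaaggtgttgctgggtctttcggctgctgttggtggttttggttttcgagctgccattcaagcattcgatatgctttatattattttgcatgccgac
Fad2 region: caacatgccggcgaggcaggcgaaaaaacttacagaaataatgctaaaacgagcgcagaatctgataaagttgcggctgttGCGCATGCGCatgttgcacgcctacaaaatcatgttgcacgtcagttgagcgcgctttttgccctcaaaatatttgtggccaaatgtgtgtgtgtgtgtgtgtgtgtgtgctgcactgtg

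For contrast, the 3 members of highest mean signal whose window also touches no untranslated region, on the same arms, are shown 50 bp to either side of the summit. Capitals mark the CA repeat CACACACA in the first. No other motif searched was found in these windows. The first, at chr3L:10678923-10679023, is intronic in simj, a subunit of the NuRD chromatin complex, and nearest to the start of CG11811. The second, at chrX:12738287-12738387, is intronic in Smr, a transcriptional corepressor. The third, at chrX:1380496-1380596, is a promoter region 66 bp upstream of CG3719.
CG11811 region: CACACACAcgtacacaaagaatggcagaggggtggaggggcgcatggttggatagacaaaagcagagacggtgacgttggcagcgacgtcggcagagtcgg
Smr region: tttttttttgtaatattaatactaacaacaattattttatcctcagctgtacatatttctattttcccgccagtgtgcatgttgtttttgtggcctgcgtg
CG3719 region: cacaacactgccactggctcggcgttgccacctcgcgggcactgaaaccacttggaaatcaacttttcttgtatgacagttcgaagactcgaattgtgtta

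Signal is the authors' value per region, without a stated scale, and it chose the members, so all of this paragraph is description without a test. Members were among the strongest regions below the threshold. Their pooled signal ran from 31.2 to 142 with a median of 98.5 and quartiles of 78.5 and 119, against a median of 44.0 for the other regions below the threshold and 270 for the optimal peaks. In the pooled list the strongest member ranked 6794 and the strongest other region below the threshold 6803. Both came after as many places as the 6793 optimal peaks. Lying below the threshold was thus a matter of rank in pooled signal. At the threshold itself there was no step. The last 3 optimal peaks, ranked 6791 to 6793, and the first 3 members, ranked 6794 to 6796, all had a signal of 141.8, and 314 of the 500 regions just below the optimal set were members. The distance limit cut a continuous range as well, with 275 regions whose farthest summit lay over 90 to 100 bp away, at a median signal of 90.3, and 223 up to 10 bp past the limit, at 85.9. The median distance was 26 bp to the summit of replicate 1 and 18 bp to those of replicates 2 and 3, and 1466 members had all 3 summits within 50 bp. The highest −log10 q of the pooled list was reached by 78 members, 24 other regions and all 6793 optimal peaks.

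To set the replicates on 1 scale, the signal of a region was divided by the replicate's median over the 5852 optimal peaks that had a summit in all 3. On this relative scale, 1 is a typical optimal peak. The median member stood at 0.336 in replicate 1, 0.285 in replicate 2 and 0.344 in replicate 3, so that members had roughly the same fraction of the optimal level in replicates 1 and 3 and less in replicate 2. In deposited signal the median member was highest in replicate 2, at 35.2, against 27.3 in replicate 1 and 29.0 in replicate 3. The medians used as divisors were 81.4, 123.7 and 84.1 in replicates 1, 2 and 3. Replicate 2 gave the lowest of the 3 relative values for 1534 members. Within a member, the SD over replicates was 29.8% of the mean in the median, against 24.4% for the optimal peaks.

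Among the 6793 strongest regions of a replicate there were 417 members in replicate 1, 202 in replicate 2 and 430 in replicate 3. These amounted to 2051 members in the top 6793 of no replicate, 765 in that of 1, 139 in that of 2 and 2 in that of all 3. Of the 139, replicate 2 was the one missing for 109. Across members, log2 signal correlated weakly between replicates over the same 2957 regions of 3 libraries. Pearson's r came to 0.267 for replicate 1 against 3. With replicate 2 it was 0.173 (replicate 1) and 0.149 (replicate 3).

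The member with the highest mean relative signal was the intronic region in simj. It measured 1.55 in replicate 1, 0.725 in replicate 2 and 0.546 in replicate 3, a mean of 0.940 ± 0.535 (SD, n = 3), and it lay 206 bp from an optimal summit. Replicate 1 alone was above the level of a typical optimal peak. The region of CG10737, in its intron, measured 0.562, 0.878 and 0.730 in replicates 1, 2 and 3, with a mean of 0.723 ± 0.158. These are the 2 members in the top 6793 of every replicate. The intronic region of Smr measured 0.324, 0.415 and 1.045, and replicate 3 stood far above the other two. It ranked 2972 in replicate 3 and 17245 in the pooled list, and lay 222 bp from an optimal summit.

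In all 6 promoters among the 12 strongest members replicate 2 gave the lowest value. At mRpS18B, a mitochondrial ribosomal protein, relative signal was 0.735, 0.314 and 0.720 in replicates 1, 2 and 3. At mor, the Moira subunit of the Brahma chromatin remodelling complex, it was 0.744, 0.162 and 0.742, and at CG3719 it was 0.944, 0.153 and 0.622. CG7458, CG2003 and cib, an actin-binding protein, had values in replicate 2 of 0.340, 0.296 and 0.303, each the lowest of its 3. Away from promoters, the region 3440 bp upstream of dally, a glypican that carries morphogens, varied least, at 0.554, 0.658 and 0.496. The remaining 2 were the intronic region of Sik2, a salt-inducible kinase, at 0.379, 0.458 and 0.810, and the intergenic region nearest CG6163, at 0.476, 0.369 and 0.815.

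**Figure D1:**
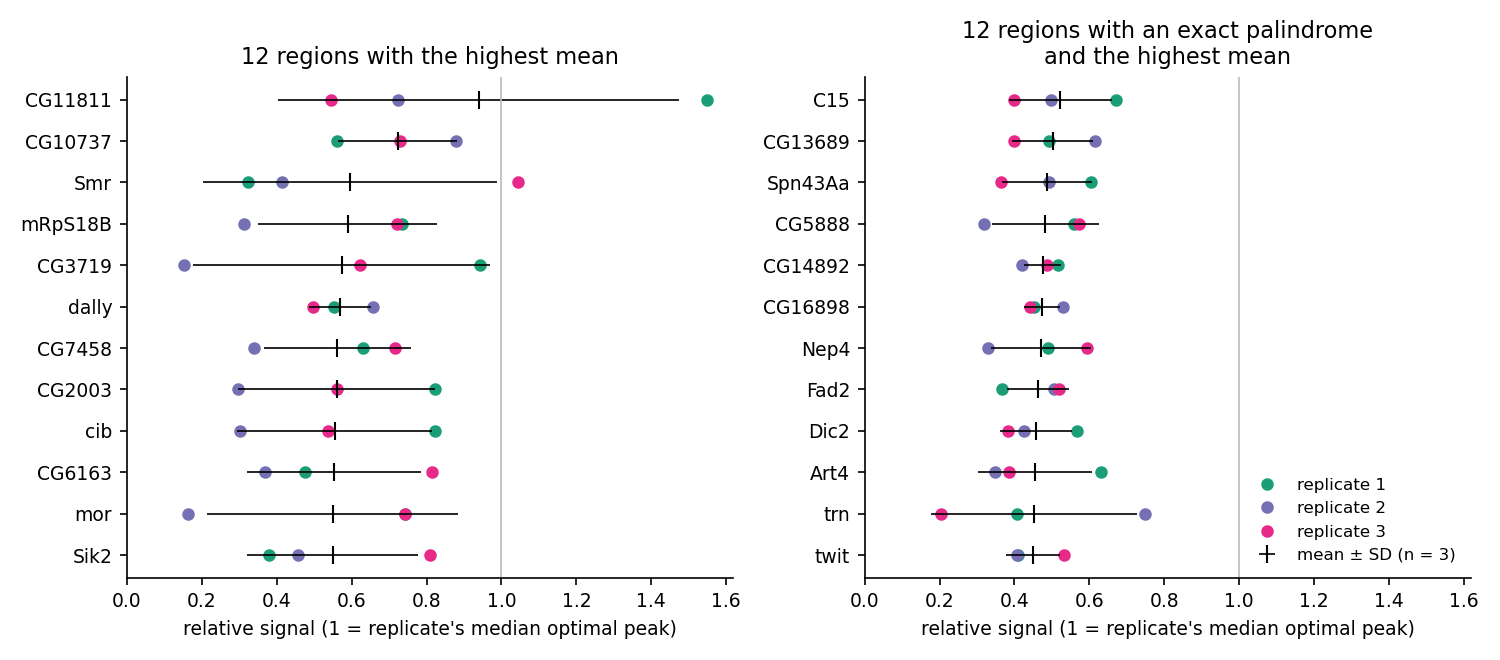
Relative signal (horizontal axis, 1 being the replicate's median optimal peak) of the 12 members with the highest mean (left) and of the 12 with an exact palindrome and the highest mean (right), named by the nearest protein-coding start. Points are the 3 replicates and black bars the mean ± SD. The simj intron region (CG11811) reaches 1.55 in replicate 1 alone, and the 12 palindrome members stay below 1 in all replicates.

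The low relative values of replicate 2 were not spread evenly over gene classes. In the 623 promoter members the median relative signal was 0.351, 0.334 and 0.329 in replicates 1, 2 and 3. In the 1308 intronic members it was 0.336, 0.279 and 0.353, and in the 758 intergenic members 0.335, 0.261 and 0.349. Replicate 2 was thus lowest in introns and between genes and not in promoters. It gave the lowest value for 41.4% of promoter members and for 54.7% of the others. Members reached the top 6793 of replicate 2 for 13.6% of promoters, 5.81% of introns and 3.69% of intergenic regions. As the named promoters show, single regions did not follow these medians. Library depth and enrichment are not recorded in these lists, and their part was not tested.

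**Figure D2:**
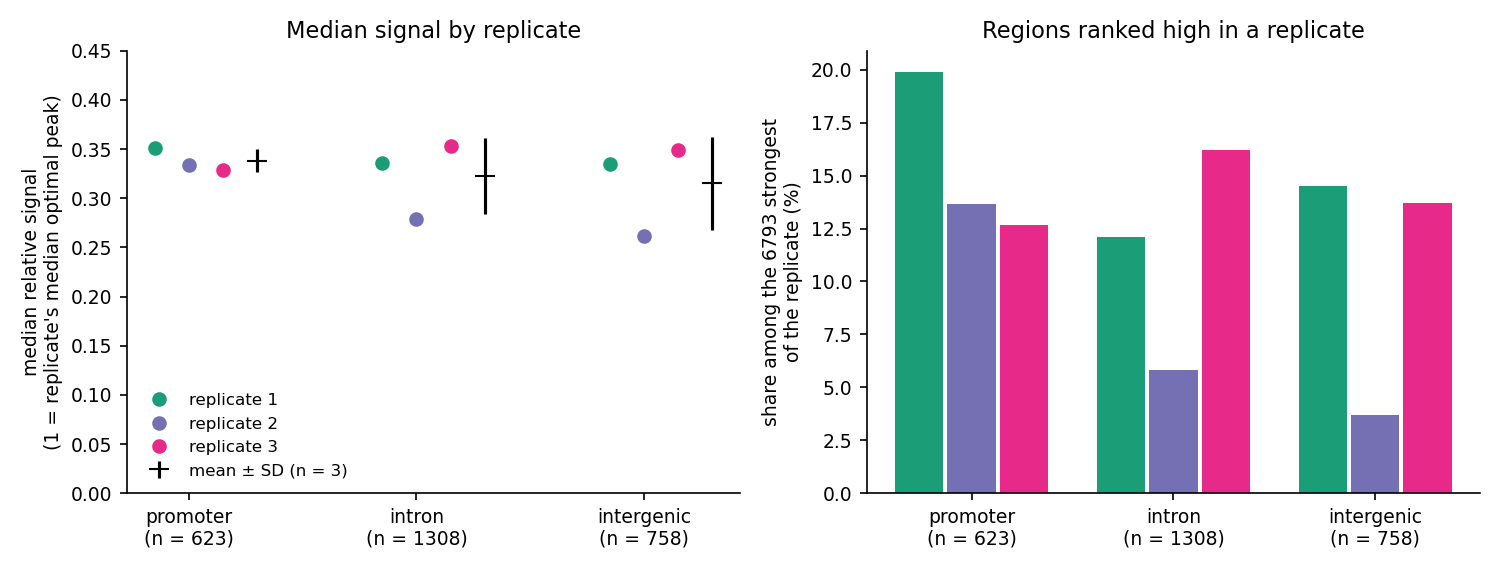
Left, median relative signal (1 being the replicate's median optimal peak) of promoter, intron and intergenic members in each replicate, with the mean ± SD of the 3 medians beside them. Right, percentage of those members among the 6793 strongest regions of each replicate. Replicate 2 lies near the other replicates in promoters, at 0.334, and below them in introns and between genes.

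Position relative to genes took no part in the rule. A promoter region has its summit within 500 bp of a transcript start of a protein-coding gene. Members lay at promoters in 623 cases, 21.1% (95% interval 19.6 to 22.6), against 48.2% of the optimal peaks, an odds ratio of 0.286 (0.259 to 0.317, two-sided Fisher's exact test, p = 1.23e-147). Introns held 44.2% of members and 30.4% of optimal peaks (exact adjusted p = 5.49e-38, odds ratio 1.82). Regions between genes held 25.6% and 14.4% (exact adjusted p = 1.26e-37, odds ratio 2.05). The median distance to the nearest protein-coding start was 2856 bp for members and 564 bp for optimal peaks. These tests describe sets of regions, which are not replicates of a condition. The adjustment was by Benjamini-Hochberg over 26 class and chromosome tests, of which 13 passed 0.05.

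Against the other regions below the threshold, the answer depended on signal. Over all of them members were more often at promoters, 21.1% against 17.0% (odds ratio 1.31, 1.18 to 1.44, exact p = 9.60e-08), and leaving out replicate 2 brought the odds ratio to 1.05 (exact p = 0.262). Members had the higher pooled signal, and over the 12000 strongest regions below the threshold the promoter share was higher in each range of higher signal, in members and in other regions; past those there were 20 members. At like signal the order turned. Among the 2000 strongest regions below the threshold, 26.2% of 1235 members and 43.1% of 765 others were at promoters (odds ratio 0.467, 0.384 to 0.568, exact p = 6.90e-15). Among the next 2000 the shares were 19.9% and 33.6% (odds ratio 0.491, exact p = 8.11e-12), and among the 2000 after those 15.5% and 25.4% (odds ratio 0.5395, exact p = 6.13e-06). These ranges were chosen after the data were seen.

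Promoters were also frequent among strong regions that missed a single replicate. Of the 2000 strongest regions below the threshold, 187 lacked a summit in replicate 1 alone, 158 in replicate 2 alone and 275 in replicate 3 alone, and 39.0%, 35.4% and 44.0% of these were promoters. For 114, 92 and 138 of them the replicate did have a summit, over 100 and up to 300 bp away. These shares are all above the 26.2% in members of the same range.

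Taken over all signals, coding exons were a class in which members were rare compared with other weak regions. There were 59 such members, 2.00%, against 5.60% of the other regions below the threshold (odds ratio 0.344, exact adjusted p = 3.07e-19) and 0.942% of the optimal peaks (odds ratio 2.14, exact adjusted p = 0.000137). The shares in introns and between genes were 42.7% and 26.7% in the other regions below the threshold, and the differences from members did not pass (exact adjusted p = 0.164 and 0.276). Median GC content within 100 bp of the summit was 38.3% in members, 42.8% in the other regions and 39.3% in optimal peaks. Members also lay somewhat closer to optimal peaks, 12.99% of them within 1000 bp of an optimal summit against 8.08% of the other regions. Another member lay within 2000 bp for 530. Members had the higher pooled signal, and none of the differences in this paragraph was examined at like signal.

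**Figure D3:**
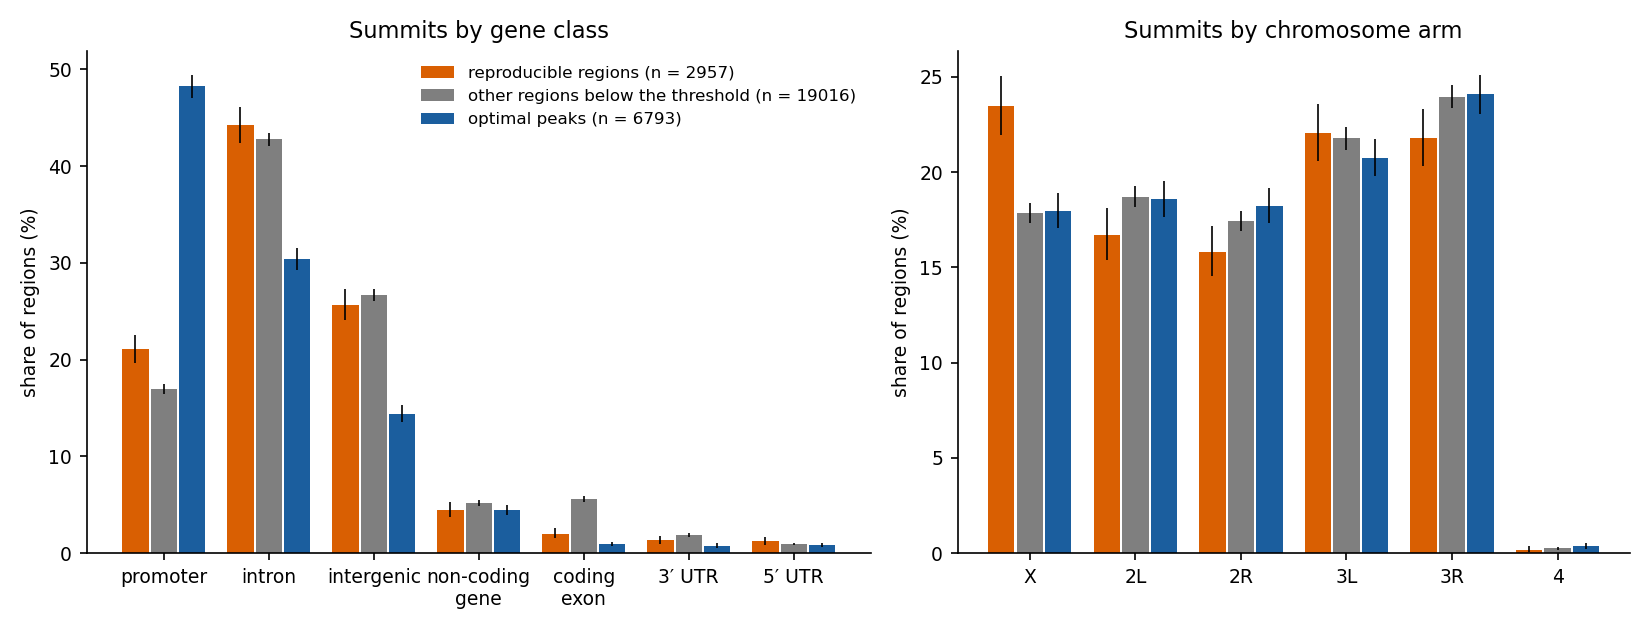
Percentage of summits in each gene class (left) and on each chromosome arm (right) for members, the other regions below the threshold and the optimal peaks; bars start at 0 and lines are exact 95% intervals that cover the counting of regions. Members are at promoters in 21.1% of cases against 48.2% of optimal peaks, and on chromosome X in 23.5% against about 18% of both other sets.

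Members were more often on chromosome X than either other set. X held 694 of them, 23.5% (21.95 to 25.04), against 17.8% of the other regions below the threshold (odds ratio 1.41, 1.285 to 1.55, exact adjusted p = 5.41e-12) and 18.0% of the optimal peaks (odds ratio 1.40, exact adjusted p = 2.16e-09). X makes up 17.6% of the bases of the arms used. Of the autosomal arms, 2L and 3R held smaller shares of members than of other regions (16.7% against 18.7% and 21.8% against 23.97%, exact adjusted p = 0.0217 for both), and chromosome 4 held 5 members. The share on X did not grow step by step with the number of replicates that had a summit. It was 18.2%, 17.5% and 18.1% for regions found in 0, 1 and 2 replicates and 23.5% for those found in 3.

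The share on X was compared at like signal as well. In the 3 ranges of 2000 regions the shares on X were 22.5%, 24.7% and 25.1% in members and 18.8%, 17.8% and 15.8% in other regions, with odds ratios of 1.25 (exact p = 0.0552), 1.51 (exact p = 0.000232) and 1.79 (exact p = 7.33e-06). Median relative signal over the replicates was 0.3215 ± 0.0372 (SD, n = 3) on X and 0.3215 ± 0.0308 on the autosomes. The 2957 regions that follow the 6793 strongest of a replicate were on X in 20.05%, 18.6% and 18.9% in replicates 1, 2 and 3. These are not regions of like rank, because the median ranks of members were 10470, 12461 and 10470. On X, 24.8% of members were at promoters, against 19.9% on the autosomes, 47.8% against 43.1% were intronic and 19.0% against 27.7% intergenic. Embryos of both sexes were pooled, and the part of X dosage in these shares was not tested.

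**Figure D4:**
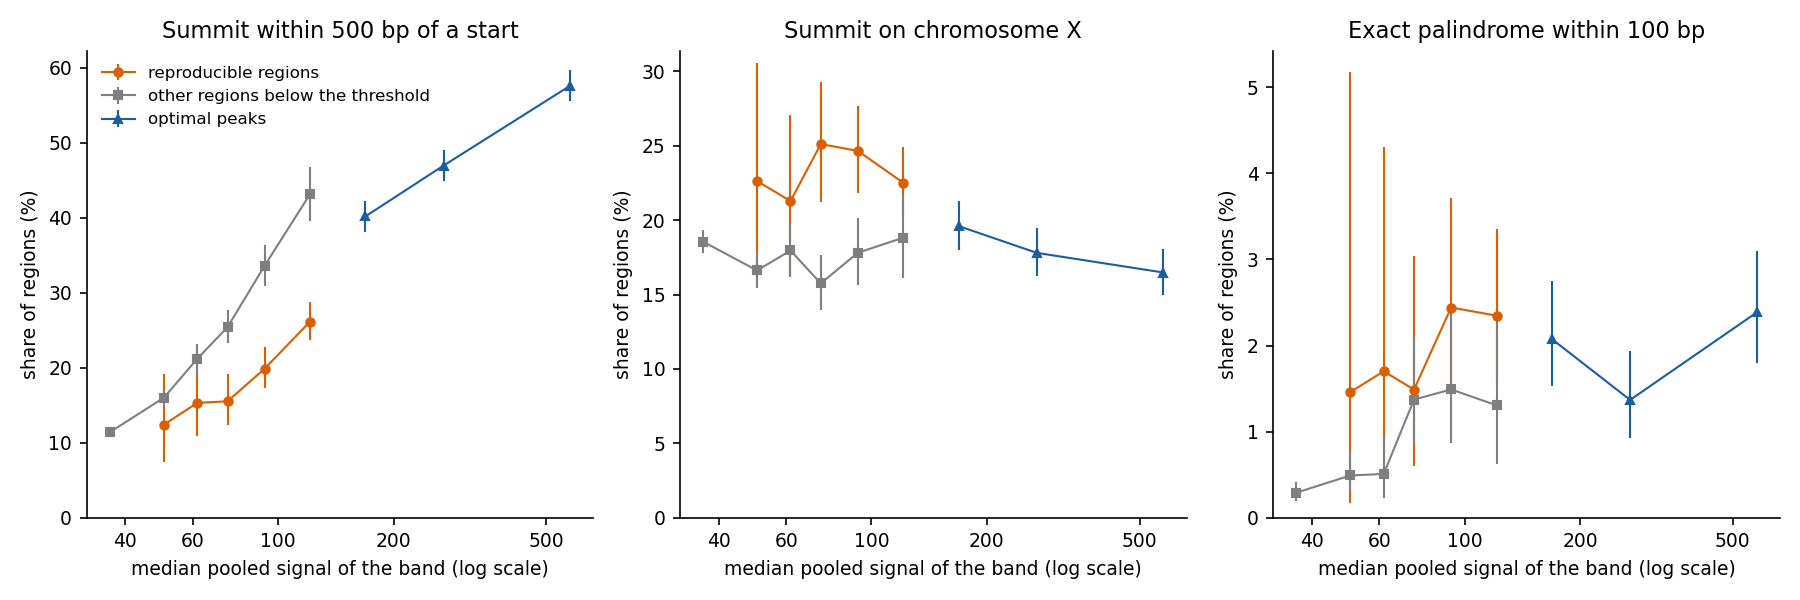
Percentage of regions at promoters (left), on chromosome X (middle) and with an exact palindrome within 100 bp of the summit (right) against the median pooled signal of each signal range, on a log scale; lines are exact 95% intervals, and ranges with under 100 regions are not drawn. At like signal members lie below the other regions for promoters, 26.2% against 43.1% in the strongest range, and above them for X.

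The NRF-1 palindrome was found at member summits far more often than next to them. It was sought on both strands, wholly within 100 bp of the summit and in a window shifted by 1000 bp. It was present in 63 members, 2.13% (1.64 to 2.72), and in 6 shifted windows, 0.203% (two-sided exact McNemar test, p = 3.92e-14). With at most 1 mismatch there were 198 members, 6.70%, and 44 shifted windows, 1.49% (exact p = 1.90e-25). An excess at summits was not particular to members. The exact form was in 105 other regions below the threshold against 25 of their shifted windows, and in 132 optimal peaks against 6. Of the 64 exact matches at members, 31 had their centre within 25 bp of the summit and 54 within 50 bp. In the sequences printed above, the palindrome of C15 is centred 4.5 bp and that of Nep4 1.5 bp before the summit, while those of CG13689 and CG5888 lie 60.5 and 67.5 bp before it.

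Taken over all signals, members and optimal peaks were alike in share for the exact palindrome and not with at most 1 mismatch. Optimal peaks held the exact palindrome in 1.94% (odds ratio of members to optimal peaks 1.10, 0.798 to 1.499, exact p = 0.530), an interval that leaves room for a difference of either sign. With at most 1 mismatch, optimal peaks had it in 10.5% and members in 6.70% (odds ratio 0.612, exact p = 1.25e-09). Against the other regions below the threshold, members were higher in both forms, 2.13% against 0.552% (odds ratio 3.92, 2.815 to 5.42, exact p = 3.92e-15) and 6.70% against 3.55% (odds ratio 1.95, exact p = 4.04e-14). Within the 3 signal ranges neither difference passed. The exact form gave odds ratios of 1.815, 1.65 and 1.09 (exact p = 0.133, 0.138 and 0.824), from 2.35%, 2.44% and 1.49% of members. The form with at most 1 mismatch gave 0.923, 1.05 and 0.750 (exact p = 0.672, 0.790 and 0.260). In the next 2 ranges, places 6001 to 8000 and 8001 to 12000, it was in 4.68% and 5.84% of members and in 4.19% and 3.49% of other regions. Over all regions at or above the median pooled signal, both excesses passed, with odds ratios of 2.44 for the exact form (exact p = 6.00e-07) and 1.33 with at most 1 mismatch (exact p = 0.00163).

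**Figure D5:**
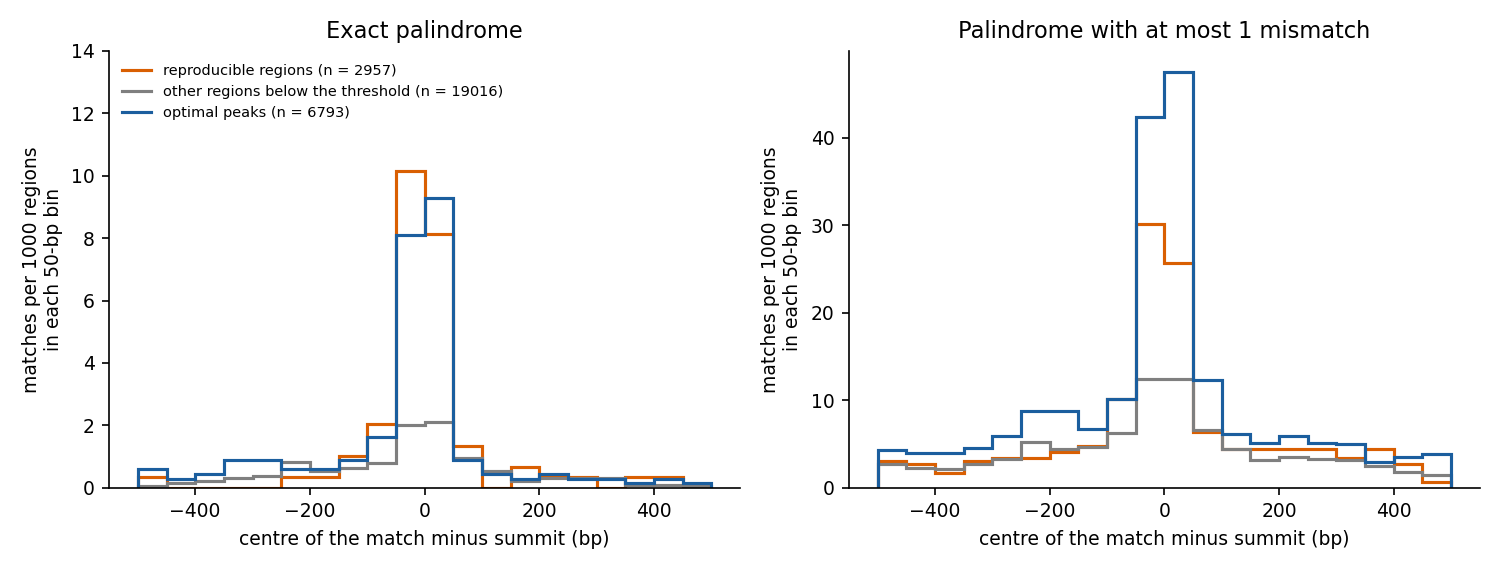
Matches to the palindrome per 1000 regions in each 50-bp bin of distance from the summit (horizontal axis, bp), exact (left) and with at most 1 mismatch (right), for members, other regions below the threshold and optimal peaks. In each set the matches gather within 50 bp of the summit, as 54 of 64 exact matches of members do, and members and optimal peaks reach like heights for the exact form alone.

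Most palindromes at members lay away from promoters, as did members as a whole, 2334 of 2957. The same was true of palindromes in the genome, 397 of 522. Of the 63 members with an exact match, 26 were intergenic, 18 intronic, 11 at promoters, 4 in coding exons, 3 in non-coding genes and 1 in a 3′ UTR. Counted from the genome, 64 of its 522 exact palindromes lay within 100 bp of a member summit, 135 near an optimal summit, 111 near another region below the threshold only and 212 near none. Members took up 52 of the 397 palindromes outside promoters (13.1%) and 12 of the 125 in promoters (9.60%), while optimal peaks took 91 (22.9%) and 44 (35.2%). The fully symmetric form of the palindrome made up 53 of the 64 matches at members, 82.8%. The other regions below the threshold had 85 of 106 or 80.2%, the optimal peaks 98 of 134 or 73.1%, and the genome 70.5%. Differences between these shares were not tested.

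Among the 12 palindrome members with the highest mean, relative signal was moderate and often even between replicates. C15 measured 0.670, 0.497 and 0.398 in replicates 1, 2 and 3, a mean of 0.522 ± 0.138 (SD, n = 3). The promoter of CG14892, with the summit 44 bp from its start, measured 0.517, 0.421 and 0.488. At CG16898 the values were 0.453, 0.529 and 0.441. These 2 varied least among the 12. The region 2643 bp upstream of trn, a leucine-rich repeat adhesion protein, varied most, at 0.408, 0.748 and 0.204. Nep4 measured 0.4895, 0.328 and 0.595, and Fad2 0.367, 0.504 and 0.518. The rest were CG13689, Spn43Aa of the serpin family, CG5888, Dic2, a mitochondrial dicarboxylate carrier, Art4, an arginine methyltransferase, and twit, with means from 0.450 to 0.502. Over all members with an exact palindrome, the median of the mean relative signal was 0.357, against 0.339 for those without.

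Other sites of embryonic promoters were searched on both strands within 100 bp of the summit, and 7 of 16 adjusted comparisons passed. TGCGCA, a shorter site that can overlap an arm of the palindrome, was in 9.54% of members, 7.41% of other regions below the threshold (odds ratio 1.32, exact adjusted p = 0.000266) and 17.2% of optimal peaks (odds ratio 0.508, exact adjusted p = 1.03e-22). Its share in windows shifted from members was 5.14%. TATCGATA, the site of the DREF factor at promoters of housekeeping genes, was in 1.72% of members, 1.04% of other regions (exact adjusted p = 0.00519) and 3.46% of optimal peaks (exact adjusted p = 4.75e-06), with 0.676% of shifted windows. GGTCACAC, bound by M1BP, and GAGAGAG, bound by GAGA factor, were in 1.39% and 4.60% of members, less than the 3.21% and 10.03% of optimal peaks (exact adjusted p = 3.68e-07 and 1.06e-19). Their shares in shifted windows were 0.575% and 3.65%. The CA repeat CACACACA was in 6.09% of members, 4.80% of shifted windows and 7.66% of other regions (exact adjusted p = 0.00520). CAGGTAG, bound by Zelda, the E-box CACGTG and AGATAAG, of the GATA type, were in 0.845%, 2.13% and 2.23% of members and in 0.879%, 2.20% and 2.20% of shifted windows, and none of their comparisons passed. The motifs of this paragraph were not compared at like signal.

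Members were at a promoter of 711 of the 13945 protein-coding genes, 5.1% of all. Of these genes, 152 also had an optimal peak at a promoter, and 559, or 4.01% of all genes, had none. Optimal peaks were at promoters of 3679 genes, 26.4%. No member lay in ewg itself or within 1000 bp of it. In 20 lists of genes, read against the 5.1% without a test, shares ran from 0% to 14.0%. They were highest for axon guidance and cell adhesion, 6 of 43 genes or 14.0%, and for the dpr and DIP families of neuronal recognition proteins, 4 of 32 or 12.5%. All 4 of the dpr and DIP genes had no optimal peak at a promoter.

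Neuronal genes with a member and no optimal peak at a promoter included receptors and ligands of growing axons. At robo3, a Slit receptor, relative signal was 0.438, 0.6015 and 0.317 in replicates 1, 2 and 3, and at NetB, a netrin, it was 0.324, 0.629 and 0.176. Nrt, the adhesion protein Neurotactin, measured 0.209, 0.554 and 0.215. In all 3 genes replicate 2 was the highest. Replicate 2 was also the highest for dpr10, at 0.305, 0.609 and 0.359, and DIP-iota, at 0.373, 0.567 and 0.321. It was not for dpr21, at 0.758, 0.407 and 0.230. Synaptic genes were in 4 of 34 cases at a member, among them the neuroligins Nlg4 (mean 0.415 ± 0.172) and Nlg2 (0.396 ± 0.181) and Vmat, the vesicular monoamine transporter (0.408 ± 0.0945). Ion channels gave 2 of 39, the potassium channels Sh (0.321 ± 0.0834) and SK (0.319 ± 0.0824). Of these synaptic and channel genes, Nlg4 and Sh were highest in replicate 2. Nlg2 and Vmat were lowest there, at 0.201 and 0.304, and SK was highest in replicate 1.

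Lists of developmental regulators lay on both sides of the 5.1% background, from 0% to 9.09%. Of 44 neural transcription factors 3 had a member, and grh, the Grainy head factor, and nub, a POU factor, had no optimal peak at a promoter. The grh region held an exact palindrome and measured 0.384, 0.565 and 0.254. Wnt pathway genes gave 3 of 36, with Notum, a secreted inhibitor of Wnt, at 0.286 ± 0.0628. Notch and EGF receptor genes gave 2 of 31, with rho, the protease that releases an EGF receptor ligand, at 0.390 ± 0.262. Segmentation and homeotic genes gave 1 of 37, Antp at 0.443 ± 0.134, where 23 had an optimal peak. Muscle genes gave 4 of 44, of which how, an RNA-binding protein, had no optimal peak (0.299 ± 0.0843). No gene of 20 in the ecdysone list had a member.

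In the lists of growth, chromatin, cell cycle, glycolysis and ribosomal proteins the shares ran from 4.65% to 11.1%. Growth and mitochondrial biogenesis gave 2 of 28, the kinases Pi3K92E (0.447 ± 0.299) and Akt (0.321 ± 0.207), both highest in replicate 1, at 0.776 and 0.539, and lowest in replicate 2, at 0.190 and 0.126. Chromatin genes gave 3 of 41, with mor and Pc, Polycomb (0.438 ± 0.0874). Replication and cell cycle genes gave 4 of 38, with CycA at 0.596, 0.710 and 0.188, and Cdk4 and Rbf at means of 0.268 and 0.261. Glycolysis gave 2 of 18, with Pgi at 0.366 ± 0.194. Cytosolic ribosomal proteins gave 4 of 86, with RpS6 and RpS15 at means of 0.424 and 0.362, against 62 of 86 with an optimal peak. Mitochondrial ribosomal proteins gave 4 of 73, among them mRpL32 (0.466 ± 0.294) and mRpS25 (0.403 ± 0.0705).

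Other lists with low shares were the respiratory chain, 1 of 84 (COX7C, 0.382 ± 0.206), the proteasome, 1 of 46 (Prosbeta1, 0.472 ± 0.204), cuticle proteins, 1 of 122 (Cpr65Ea, 0.3045 ± 0.0902), and chemosensory genes, 2 of 231 (Obp28a, 0.329 ± 0.0574, and Ir60b, 0.202 ± 0.0732). Optimal peaks were at promoters of 28 of 84 respiratory genes but of 1 of 122 cuticle and 3 of 231 chemosensory genes. The cuticle and chemosensory lists were low in both sets.

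Some long genes held several members. Between the ends of 1183 genes there was at least 1 member, and 390 genes had more than 1. Longer genes offer more room for members, and whether these counts exceed what length gives was not tested. The gene kirre, an immunoglobulin-family receptor of muscle founder cells on X, spans 394.1 kb and held 19 members, 0.482 per 10 kb against 0.221 in the genome. This gene was named for holding the most members, so a density above that of the genome was favoured by the choice. It also held 20 optimal peaks and 80 other regions below the threshold. The mean relative signal of its members ran from 0.175 to 0.508. CG43658, also on X, held 9 in 105 kb with a median of 0.421. Glut4EF and CG46467, which overlap, shared 9, and hth, a homeodomain partner of Hox proteins, held 9 in 132 kb beside 11 optimal peaks. Exact palindromes were at 0 of the 19 members in kirre, at 1 in Glut4EF and at 1 in hth.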

How the data were processed

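Peak lists of 3 replicates, of the replicates pooled and of the authors' optimal set were read on dm6. Per the deposited file records, the permissive lists are peaks and background made for IDR, from alignments and a control alignment that was not analysed here. Which aligner and peak caller were used is not given in the sources used here. Per region, the signal is the authors' deposited value, its scale not stated or equalised between lists. The deposited −log10 q-value reaches a ceiling and was used to count regions there. The summit is the deposited offset from a region's start. Read depth is unknown from these lists. Exact (Clopper-Pearson) intervals at 95% cover the counting of regions only.

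Sequence came from the RefSeq genome of Release 6 (dm6) and genes from Ensembl release 115. Coordinates are counted from 1. A summit was put in the first class that fitted, in the order promoter, 5′ UTR, coding exon, 3′ UTR, non-coding gene, intron, intergenic. Shifted windows lay 1000 bp away, alternately to either side. The palindrome is the NRF-1 core with either pyrimidine at its sixth base. Fisher's exact test (two-sided) compared shares, with Benjamini-Hochberg adjustment within the class and chromosome family and within the motif family, and the exact McNemar test compared shifted windows. Scripts were tested on simulated data. Of the list entries, 5 matched no gene symbol.

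Members, gene lists and tests were chosen with earlier results of these data known. The named genes are those at the 12 members of highest mean relative signal, at the 12 such members with an exact palindrome, the 5 genes with most members, and up to 3 genes per list that had no optimal peak at a promoter. The result for 1 such gene is not reported here. Printed windows around palindromes were widened from 50 to 100 bp to either side after the files had been read. Calculations used Python 3.11.15, scipy 1.17.1, pandas 2.3.3, numpy 2.4.6 and matplotlib 3.10.9.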

Additional observations from a re-analysis of the deposited data

How the results depend on the processing

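Of 96 alternative values for 9 results, 78 kept their direction and side of the threshold. The count of members moved to 1466 with summits within 50 bp, 4546 within 200 bp, and 1197 when each matching region had to be among the 15000 strongest of its replicate; leaving out 1 replicate gave 4916 to 5277. The promoter odds ratio of members to other regions below the threshold turned to 0.833 (exact p = 0.000474) at or above the median pooled signal of 47.6, and to 0.467, 0.491 and 0.5395 in the 3 ranges of 2000 regions; without 1 replicate it ran from 1.05 to 1.61. In the same ranges the palindrome odds ratios were 1.815, 1.65 and 1.09 exact and 0.923, 1.05 and 0.750 with at most 1 mismatch, and that for X was 1.25 in the strongest range. These ranges compare fewer regions, at like pooled signal, and the cause of the changed ratios was not tested. The promoter share against optimal peaks stayed at odds ratios of 0.236 to 0.323 in every alternative run, none of which was at like signal. For the exact palindrome, ratios of summits to shifted windows ran from 5.92 to 41.0, the last from 41 members and 1 shifted window. With at most 1 mismatch they ran from 2.85 to 8.765. The tests of X and of the exact palindrome against other regions, and the signal ranges, were added after seeing the data. No paired analysis was possible because there was 1 group. Without read counts, the lists cannot show how much depth limited the weakest regions.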
